A study of Homo sapiens with 6 samples.

Results

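The abundant noncoding RNAs *MALAT1*, *NEAT1*, *RN7SK* (7SK RNA), *RMRP*, *RPPH1* and *TUG1* were followed in total RNA through a B cell to macrophage conversion with and without the chromatin protein CTCF. They were chosen by symbol from a table of raw read counts, where they are 6 of 30017 listed genes, and all 6 passed the filter on low counts that left 14758 genes for testing. The study used BLaER1-CTCF-mAID cells, a single human leukemia subclone of B cell origin whose CTCF protein is fused to a degron that auxin switches on. The paper states that BLaER1 cells become induced macrophages (iMacs) because they are made to express CEBPA, a transcription factor, artificially. This conversion, called transdifferentiation, was started by adding 17β-estradiol, IL-3 and CSF-1 to the medium. The 3 groups, with 2 biological replicates each, are untreated cells at 0 h, cells at 96 h of transdifferentiation without auxin (96 h control), and cells at 96 h that received 500 µM of the auxin IAA from the start of transdifferentiation (96 h CTCF-depleted). All groups carry the degron, and no line lacking it received IAA, so effects of IAA and of CTCF loss cannot be told apart. The RNA was sheared total RNA depleted of ribosomal RNA, which keeps transcripts without a poly(A) tail.

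*MALAT1* and *NEAT1* are long RNAs made by RNA polymerase II that stay in the nucleus. *MALAT1* gathers in nuclear speckles, bodies rich in splicing factors, and *NEAT1* is the scaffold around which paraspeckle proteins assemble. *RN7SK*, *RMRP* and *RPPH1* are short, folded RNAs made by RNA polymerase III. 7SK RNA holds the elongation kinase P-TEFb in an inactive particle, *RMRP* is the RNA of RNase MRP, which cuts precursor ribosomal RNA, and *RPPH1* is the RNA of RNase P, which trims the 5′ leaders of precursor tRNAs. RNase P also cuts the 3′ ends of *MALAT1* and of the long form of *NEAT1* in front of a tRNA-like fold. *TUG1* is a long RNA found in both nucleus and cytoplasm.

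In hg38 (GENCODE release 44), *MALAT1* spans 10434 bases at chr11:65497640-65508073 on the plus strand, and *NEAT1* spans 22767 bases at chr11:65422774-65445540 on the same strand, 52.1 kb before it. *RN7SK* is a 328-base gene at chr6:52995621-52995948 (plus strand), *RMRP* a 264-base gene at chr9:35657754-35658017 (minus strand) and *RPPH1* a 333-base gene at chr14:20343075-20343407 (minus strand). *TUG1* covers chr22:30969245-30979395 (plus strand) and is typed as protein-coding in this release. GENCODE also lists 293 copies of *RN7SK*, 1 of *RMRP*, 2 of *RPPH1* and the *MALAT1* antisense gene *TALAM1*. The count table names 0 of these, and whether reads from them could have been counted to the 6 genes is not given in the sources used here.

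The 3 polymerase III RNAs are shown because they are the molecules behind 2.76% to 3.93% of the counts. *RMRP* is shown whole, and *RN7SK* and *RPPH1* by their first 300 bases. In 7SK RNA, the 3 GATC motifs are in capitals. These lie in its 5′ hairpin, the part to which the inhibitor HEXIM1 binds.

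RN7SK, chr6:52995621-52995920, plus strand: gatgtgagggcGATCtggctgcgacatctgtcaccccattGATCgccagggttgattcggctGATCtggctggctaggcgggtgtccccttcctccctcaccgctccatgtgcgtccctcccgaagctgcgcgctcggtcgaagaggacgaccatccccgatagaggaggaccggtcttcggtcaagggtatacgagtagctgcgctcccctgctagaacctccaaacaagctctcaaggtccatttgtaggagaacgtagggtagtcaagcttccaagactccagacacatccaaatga

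RMRP, chr9:35657754-35658017, minus strand: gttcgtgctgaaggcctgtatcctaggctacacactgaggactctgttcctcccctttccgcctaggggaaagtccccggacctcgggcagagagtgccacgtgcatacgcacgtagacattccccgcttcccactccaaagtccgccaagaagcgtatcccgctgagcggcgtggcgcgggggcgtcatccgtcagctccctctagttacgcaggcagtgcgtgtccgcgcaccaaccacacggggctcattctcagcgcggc

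RPPH1, chr14:20343108-20343407, minus strand: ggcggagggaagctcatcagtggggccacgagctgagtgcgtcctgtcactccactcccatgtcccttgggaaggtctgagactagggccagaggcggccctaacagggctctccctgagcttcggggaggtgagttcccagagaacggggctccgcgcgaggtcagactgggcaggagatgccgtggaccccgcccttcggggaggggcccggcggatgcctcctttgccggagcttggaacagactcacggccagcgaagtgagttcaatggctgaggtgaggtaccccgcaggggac

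The 60 bases before the start of each of these genes are shown next, since all 3 are transcribed from promoters that lie outside the RNA. Capitals mark a TATAA or TATAT match on the gene's strand, which begins 31 bases before the start of *RN7SK*, 33 before *RMRP* and 34 before *RPPH1*. Of 35116 RefSeq promoters, 7.01% hold either motif on the gene's strand in the same 60-base window, and 8.33% on either strand.

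RN7SK upstream, chr6:52995561-52995620, plus strand: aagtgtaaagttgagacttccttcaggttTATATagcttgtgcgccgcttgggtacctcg

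RMRP upstream, chr9:35658018-35658077, minus strand: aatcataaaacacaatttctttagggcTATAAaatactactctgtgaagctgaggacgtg

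RPPH1 upstream, chr14:20343408-20343467, minus strand: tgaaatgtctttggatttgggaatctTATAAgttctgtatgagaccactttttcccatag

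The 3′ ends of *MALAT1* and *NEAT1* are shown because they stand in for a poly(A) tail. Capitals mark the U-rich motifs and the A-rich tract that pair into a triple helix, given here as DNA letters. The small tRNA-like RNA that follows each end is shown in lower case on a line of its own.

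MALAT1 3′ end, chr11:65506007-65506116, plus strand: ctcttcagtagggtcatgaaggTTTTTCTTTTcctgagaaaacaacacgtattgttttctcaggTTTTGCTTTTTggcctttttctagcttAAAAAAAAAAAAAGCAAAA

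MALAT1 small RNA (mascRNA), chr11:65506117-65506173, plus strand: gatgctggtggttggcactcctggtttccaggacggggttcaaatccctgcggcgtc

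NEAT1 3′ end, chr11:65445431-65445540, plus strand: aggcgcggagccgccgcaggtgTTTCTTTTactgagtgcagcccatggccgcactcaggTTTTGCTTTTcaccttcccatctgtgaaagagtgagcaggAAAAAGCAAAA

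NEAT1 small RNA (menRNA), chr11:65445541-65445598, plus strand: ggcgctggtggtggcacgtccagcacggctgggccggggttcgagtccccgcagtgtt

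The libraries held 9273470 to 12718780 counts. Summed markers moved as the labels state: 12 of 12 B cell markers were lower and 12 of 12 macrophage markers higher at 96 h than at 0 h in both arms. In CPM (counts per 1000000 of the library), B cell markers summed to 4470 to 4500 at 0 h and to 429 to 468 at 96 h, and macrophage markers to 101 to 113 at 0 h and 5820 to 6510 at 96 h. The 8 T and NK cell markers summed to a CPM of 2.8 and 3.07 at 0 h and to 32.1 to 37.5 at 96 h, almost all of it from *NKG7* and *CD2*, and *CD3D* and *CD3G* had 0 counts in every library. What part this had in the results below was not tested. *CTCF* transcripts had 2235 and 2849 counts at 0 h, 2048 and 1875 in the 96 h control and 2062 and 2051 after CTCF depletion, with a log2 fold change between the last 2 groups of 0.10 (adjusted p = 0.119). The degron acts on the protein, so this does not check the depletion. The paper checked it by mapping where CTCF binds in iMacs with and without auxin, which was not examined here. In bulk RNA, fewer cells of a type and less RNA per cell cannot be told apart, and every level given here is a part of each library's total.

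The 31 entries for mitochondrial or ribosomal RNA held 0.00221% to 0.0119% of counts. Shares and ranks here are thus of the genes counted, not of total RNA. Together, the 6 RNAs took a larger part of all counts at 96 h than at 0 h. At 0 h they made up 4.14% and 4.23% of all counts. This share was 5.75% and 6.06% in the 96 h control, and 6.87% and 6.91% after CTCF depletion. The 3 groups did not overlap, and the CTCF-depleted libraries were the highest. Group means were 4.18% ± 0.0658, 5.91% ± 0.220 and 6.89% ± 0.0297 (SD, n = 2). How many of all tested genes separate the groups in this way was not counted, here or for the single genes below. At an adjusted p below 0.01 in edgeR, 68.2% of tested genes differed between the 96 h control and 0 h. Between the arms at 96 h, 29.4% did. With 2 libraries against 2, an exact two-sided permutation test cannot give a p below 0.333, so the shares carry no test. Among genes not annotated as protein-coding, with *TUG1* added, the 6 RNAs supplied 61.5% and 62.4% of the counts at 0 h, 68.4% and 69.0% in the 96 h control and 73.7% and 73.9% after CTCF depletion.

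**Figure D1:**
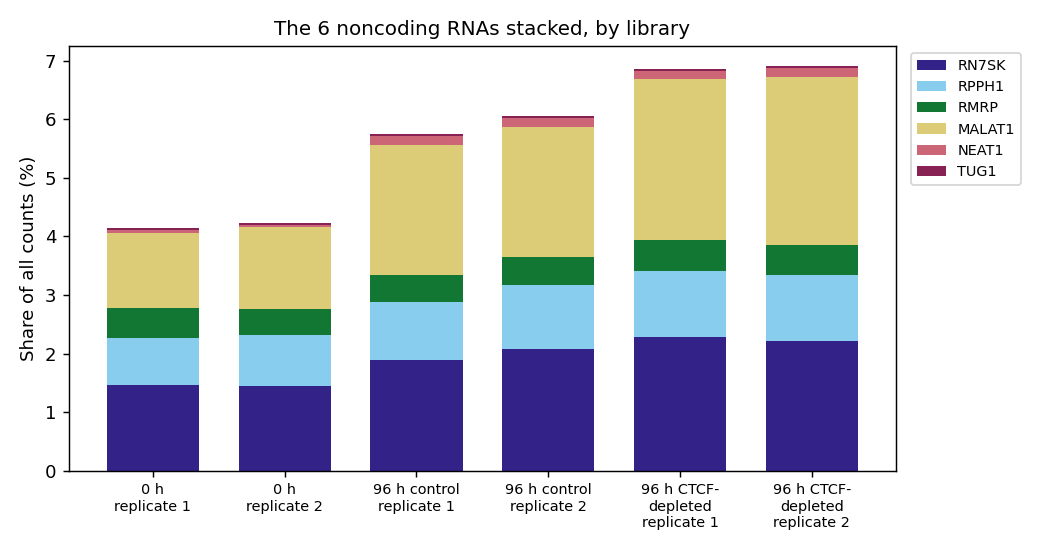
Share of all counts (%, vertical axis) of the 6 RNAs, stacked, in each of the 6 libraries (horizontal axis). The totals are 4.14% and 4.23% at 0 h, 5.75% and 6.06% in the 96 h control and 6.87% and 6.91% after CTCF depletion, and *RN7SK*, *RPPH1* and *MALAT1* form most of each bar.

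The order of the RNAs by share was steady apart from its top. *RN7SK* had the most counts of any gene in both 0 h libraries, with *MALAT1* at rank 2, and these places were exchanged in all 4 libraries of 96 h. *RPPH1* held rank 3 or 4 and *RMRP* rank 6 or 7 in every library. *NEAT1* moved from ranks 353 to 362 at 0 h to ranks 27 to 31 at 96 h, while *TUG1* lay between ranks 365 and 510.

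Per kilobase of annotated gene, the polymerase III RNAs lay far above the long RNAs. At 0 h, mean CPM per kilobase (TMM-scaled, as all CPM values below) were 42345 for *RN7SK*, 23985 for *RPPH1*, 17135 for *RMRP*, 1229 for *MALAT1*, 30.2 for *TUG1* and 16.8 for *NEAT1*. In the 96 h control, *NEAT1* stood at 71.9 and *TUG1* at 35.6, so these neighbours in the order exchanged places. Neighbours in the order did not overlap within any group. The annotated exons of each of the 6 genes together cover its whole span, which is the length used here. The short form of *NEAT1* covers only the start of its span.

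*MALAT1* rose during transdifferentiation. It took 1.29% and 1.40% of all counts at 0 h, 2.21% and 2.22% in the 96 h control, and 2.76% and 2.87% in CTCF-depleted iMacs. No 2 groups overlapped. The Wilson 95% intervals of the 0 h replicates, 1.284% to 1.298% and 1.39% to 1.403%, do not overlap either, so replicates of the same group differed by more than counting error, which is all that these intervals cover. Against 0 h, the 96 h control was higher by a log2 fold change of 0.84 (SE 0.0632, 1.79-fold, adjusted p = 5.485e-18). A gene was called changed at an adjusted p below 0.01 and a log2 fold change beyond 0.6 in either direction, the thresholds of the study's own methods.

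*NEAT1* had the largest rise of the 6. Its share was 0.0399% and 0.0401% at 0 h, 0.159% and 0.157% in the 96 h control, and 0.140% and 0.147% after CTCF depletion. The 96 h libraries lay far above the 0 h libraries in both arms, and the CTCF-depleted pair lay below the control pair. The log2 fold change of the 96 h control against 0 h was 2.10 (SE 0.0480, 4.29-fold, adjusted p = 1.907e-42). *MALAT1* had 32.4 and 34.8 counts per *NEAT1* count at 0 h, 13.9 and 14.1 in the 96 h control and 19.7 and 19.5 after CTCF depletion.

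*RN7SK* held 1.46% and 1.45% of all counts at 0 h, 1.89% and 2.09% in the 96 h control, and 2.29% and 2.21% after CTCF depletion. The replicates were closest at 0 h and furthest apart in the 96 h control, and the groups did not overlap. Its log2 fold change between the 96 h control and 0 h was 0.57 (95% confidence interval 0.44 to 0.69, 1.48-fold, adjusted p = 8.58e-12), just short of the fold change threshold. Without the first 96 h control library it was 0.61 and passed, so 1 library decides this call.

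*RPPH1* accounted for 0.809% and 0.866% of counts at 0 h, 1.00% and 1.08% in the 96 h control, and 1.13% and 1.135% after CTCF depletion. The 3 groups did not overlap, and every library of 96 h lay above those of 0 h. Between the arms at 96 h, however, the adjusted p of *RPPH1* was 0.263 in edgeR. The log2 fold change of the 96 h control against 0 h was 0.43 (95% confidence interval 0.32 to 0.55, adjusted p = 1.71e-09), which was under the fold change threshold.

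*RMRP*, in contrast, had overlapping groups. Its share was 0.508% and 0.440% at 0 h, 0.460% and 0.492% in the 96 h control, and 0.519% and 0.510% after CTCF depletion. The 0 h replicates spanned the values of the 96 h control. The log2 fold change of the 96 h control against 0 h was 0.13 (95% confidence interval 0.01 to 0.24, adjusted p = 0.0403), and it was -0.02 without the second 0 h library. Other short structured RNAs also differed between the 0 h replicates: *RNU4-2*, a U4 spliceosomal RNA, had 1522 and 1325 counts and *RNU5A-1*, a U5 spliceosomal RNA, 306 and 255, although the second library was deeper. In the 96 h control they had 1816 and 2407, and 404 and 587 counts, although there the second library was shallower. The shares of *RN7SK*, *RPPH1* and *RMRP* were also higher in that library. *RN7SL1* and *RN7SL2*, described below, together took 1.03% in each 96 h control library. What part these replicate differences had in the values of the short RNAs was not tested. The ratio of *RN7SK* to *RMRP* counts was 2.87 and 3.31 at 0 h, 4.10 and 4.24 in the 96 h control and 4.40 and 4.34 after CTCF depletion.

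*TUG1* had the lowest share of the 6 in every library. It took 0.0316% and 0.0326% of counts at 0 h, 0.0345% and 0.0352% in the 96 h control, and 0.0349% and 0.0360% after CTCF depletion. Both 0 h libraries lay below all 4 libraries of 96 h, while the arms at 96 h overlapped. The log2 fold change of the 96 h control against 0 h was 0.24 (95% confidence interval 0.15 to 0.33, adjusted p = 6.55e-06).

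**Figure D2:**
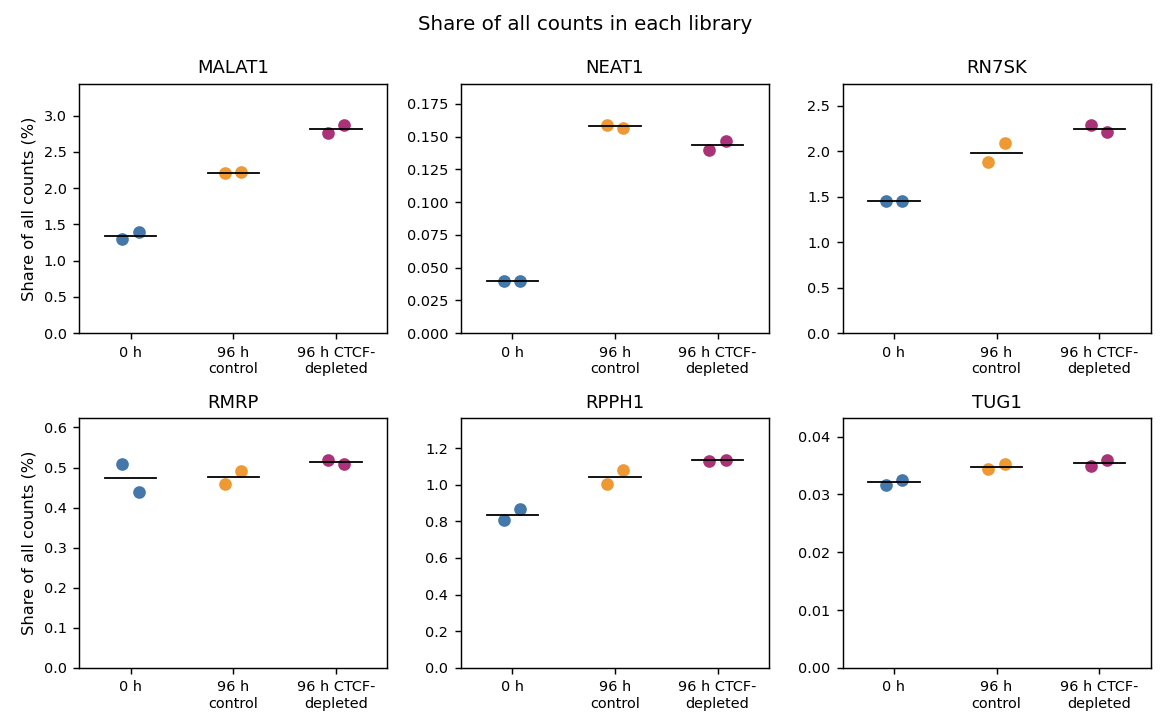
Share of all counts (%, vertical axes from 0, each scaled to its RNA) at 0 h, in the 96 h control and after CTCF depletion. Points are single libraries (2 per group) and lines are group means. *MALAT1*, *NEAT1*, *RN7SK* and *RPPH1* separate the groups, while the *RMRP* points at 0 h, 0.508% and 0.440%, enclose those of the 96 h control. How many of all tested genes separate the groups in this way was not counted.

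In all, 2 of the 6 RNAs, *MALAT1* and *NEAT1*, were called higher in the 96 h control than at 0 h, where 25.4% of all tested genes were called higher. None of the 6 was called lower, against 22.9% of all tested genes. At an adjusted p below 0.01 with no fold change threshold, 5 of the 6 differed, beside 68.2% of all tested genes. The median log2 fold change of the 6 was 0.501, beside 0.0151 over all tested genes.

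CTCF depletion was then compared with the 96 h control, which asks what changes when transdifferentiation runs without CTCF. By the call thresholds, 0 of the 6 RNAs changed in either direction in edgeR or in DESeq2, where 5.41% of all tested genes were called higher and 7.03% lower in edgeR. At an unadjusted p below 0.05, 3 of the 6 differed in edgeR. The share of all tested genes at this threshold was not counted, here or for the lists below. It includes the 29.4% with an adjusted p below 0.01. At an adjusted p below 0.01 with no fold change threshold, *MALAT1* and *NEAT1* differed, in opposite directions, 2 of 6 beside 29.4% of all tested genes. The median over the 6 was 0.0797, beside -0.0309 over all tested genes.

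For *MALAT1*, both CTCF-depleted libraries lay above both controls, with a log2 fold change of 0.31 (95% confidence interval 0.18 to 0.43, 1.24-fold, adjusted p = 5.705e-05). The adjusted p was at most 0.0005588 over the alternatives. For *NEAT1*, both CTCF-depleted libraries lay below both controls, with a log2 fold change of -0.18 (95% confidence interval -0.27 to -0.09, 0.885-fold, adjusted p = 0.001204). This value was -0.11 (adjusted p = 0.1229) without the first CTCF-depleted library, and the adjusted p also lay above 0.01 without the second CTCF-depleted library (0.01315), without either 96 h control library (0.04723 and 0.04483) and with a minimum of 10 counts in every library (0.01319).

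For the polymerase III RNAs, the adjusted p lay above 0.01 between the arms. The log2 fold change was 0.14 for *RN7SK* (95% confidence interval 0.02 to 0.27, adjusted p = 0.0655), 0.08 for *RMRP* (-0.04 to 0.19, adjusted p = 0.311) and 0.08 for *RPPH1* (-0.03 to 0.20, adjusted p = 0.263). These values rest on the 96 h control libraries. *RN7SK* was at 0.10 without the first of them (adjusted p = 0.2735) and at 0.26 without the second (adjusted p = 0.004558), and its adjusted p was 0.003744 in DESeq2 and 1.722e-08 with no filter on low counts. The same omissions gave 0.05 and 0.16 for *RMRP* and 0.06 and 0.17 for *RPPH1*, whose adjusted p was 0.0009135 with no filter. For *TUG1* the log2 fold change was -0.01 (95% confidence interval -0.10 to 0.08, adjusted p = 0.874). Its sign turned under most alternatives.

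**Figure D3:**
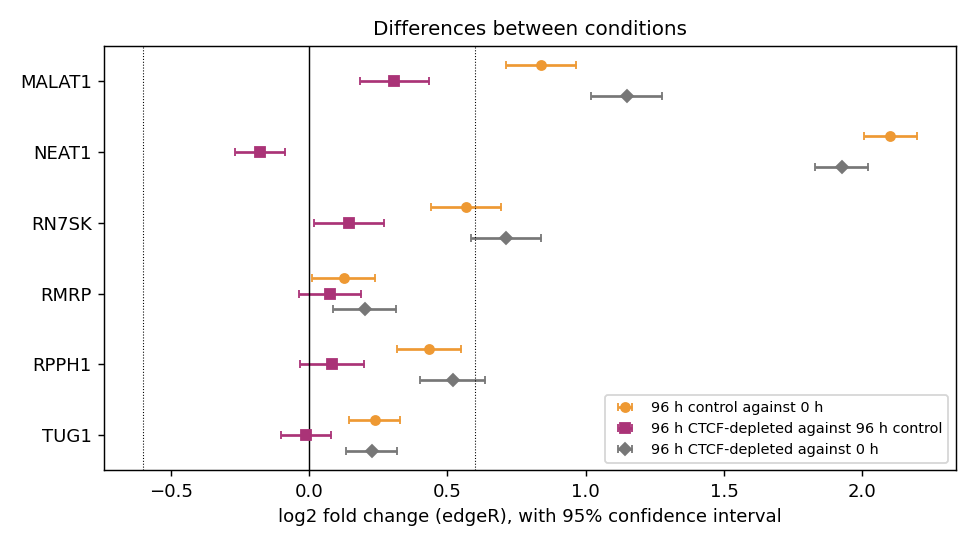
log2 fold change (horizontal axis, edgeR) with 95% confidence intervals for the 6 RNAs in the 3 comparisons. The solid line marks 0 and dotted lines mark the fold change threshold of 0.6. *NEAT1* has the largest rise against 0 h (2.10 in the 96 h control) and is the lowest in the comparison of CTCF-depleted with control iMacs (-0.18).

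Against 0 h, CTCF-depleted iMacs had 3 of the 6 RNAs called higher, where 27.2% of tested genes were called higher, and none called lower, where 25.2% were. All 6 had an adjusted p below 0.01, beside 71% of tested genes. The log2 fold changes were 1.15 for *MALAT1*, 1.93 for *NEAT1*, 0.71 for *RN7SK*, 0.52 for *RPPH1*, 0.23 for *TUG1* and 0.20 for *RMRP*. The 0 h and 96 h libraries here are those of the previous comparisons, so these values share their samples.

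Inside the *NEAT1* span, near its 3′ end, lies *MIR612* (chr11:65444458-65444557), a microRNA gene that overlaps the long form of *NEAT1* and not its short form. *MIR612* had 55 and 83 counts at 0 h, 271 and 325 in the 96 h control, and 334 and 369 after CTCF depletion. These correspond to 14.9 and 16.3 *MIR612* counts per 1000 *NEAT1* counts at 0 h, 14.6 and 18.4 in the 96 h control and 21.7 and 23.0 after CTCF depletion. The CTCF-depleted libraries had the highest ratio, and the ratios of the other groups overlapped. *MIR612* was called higher in the 96 h control than at 0 h (log2 fold change 2.17, adjusted p = 1.108e-20). Between the arms at 96 h its log2 fold change was 0.27 (95% confidence interval 0.05 to 0.48, adjusted p = 0.0407), opposite in sign to that of *NEAT1*. It was 0.14 without the first 96 h control library (adjusted p = 0.4152) and 0.47 without the second (adjusted p = 0.005878), and the adjusted p was 0.2807 in DESeq2. The sources used here do not give how reads in overlapping genes were assigned, and the difference between *MIR612* and *NEAT1* was not tested.

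The genes of the protein partners of these RNAs were read from the same fit. Of 11 paraspeckle proteins and *NEAT1* processing factors, 0 were called higher and 3 lower in the 96 h control than at 0 h, where 25.4% of all tested genes were called higher and 22.9% lower. In the list, 10 had a negative log2 fold change (median -0.468). The 3 were *SMARCA4*, a chromatin remodeler (-0.77), *NONO*, a core paraspeckle protein (-0.75), and *NUDT21*, a subunit of the cleavage factor that favours the short form of *NEAT1* (-0.74). *NONO* had a CPM of 740.3 ± 14.9 at 0 h, 440 ± 4.06 in the 96 h control and 438 ± 1.78 after CTCF depletion (SD, n = 2). The other core proteins had log2 fold changes of -0.27 for *SFPQ* and 0.25 for *PSPC1*. After CTCF depletion, 0 of the 11 were called against the 96 h control in edgeR or DESeq2. In edgeR, 8 had an unadjusted p below 0.05. An adjusted p below 0.01 was reached by 7, 6 of them with lower values, beside 29.4% of all tested genes.

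Of 12 nuclear speckle proteins, 3 were called lower in the 96 h control than at 0 h, where 22.9% of all tested genes were, and none higher (median -0.372). These were the splicing factors *SRSF1* (-0.82), *SRSF7* (-0.70) and *SRSF3* (-0.64). Between the arms at 96 h, 0 of the 12 were called in edgeR or DESeq2, and 5 had an unadjusted p below 0.05 in edgeR. A list of 4 genes was drawn up for the *MALAT1* 3′ end. Of these, *ELAC2*, the tRNA 3′ processing enzyme that trims mascRNA, was called lower (-0.74), as was *METTL16*, a methyltransferase that binds the triple helix (-0.76). Of all tested genes, 22.9% were called lower. *METTL14* and *METTL3*, named after their values were seen, complete the list and were not called (0.097 and 0.096). *METTL16* had a CPM of 106 ± 5.99 at 0 h, 62.8 ± 0.800 in the 96 h control and 52.7 ± 2.35 after CTCF depletion. Between the arms, 0 of the 4 were called in edgeR or DESeq2, and 2 had an unadjusted p below 0.05 in edgeR.

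The 7SK particle held the gene with the largest rise among the protein partners. *HEXIM1*, which inhibits P-TEFb when bound to 7SK RNA, had 542 and 708 counts at 0 h, 1648 and 1661 in the 96 h control, and 2672 and 2636 after CTCF depletion. The 3 groups did not overlap. It was called higher in the 96 h control than at 0 h (log2 fold change 1.46, SE 0.0613, 2.75-fold, adjusted p = 2.387e-29) and higher again in CTCF-depleted than in control iMacs (0.71, SE 0.0532, 1.64-fold, adjusted p = 5.154e-17). Both calls held under all 14 refits, with a range of 0.70 to 0.78 for the latter. Its paralog *HEXIM2* had few reads, 29 and 42 counts at 0 h, 8 and 10 in the 96 h control and 22 and 10 after CTCF depletion, and was called lower in the 96 h control than at 0 h (-1.91).

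The other 6 genes of the 7SK list were not called in either comparison. Against 0 h, the log2 fold change in the 96 h control was 0.15 for *LARP7* and 0.10 for *MEPCE*, the proteins that stay bound to 7SK RNA, -0.45 for *CDK9*, the kinase of P-TEFb, and -0.06 for its cyclin *CCNT1*. Between the arms at 96 h the values were -0.18, -0.07, 0.19 and -0.12. *RN7SK* itself differed by 0.57 and 0.14 in these comparisons.

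Of the 11 proteins of RNase P and RNase MRP, *RPP25* had no counts, and of the 10 tested, 4 were called lower and 0 higher in the 96 h control than at 0 h (median -0.544), beside 22.9% lower and 25.4% higher of all tested genes. In DESeq2, 2 of the 10 were called. The largest differences were those of *RPP21* (-2.25), *POP7* (-1.13) and *RPP30* (-0.84), and *RPP21* rests on 25 and 15 counts against 2 and 6. The *RPP21* call was lost in DESeq2 and without the first 0 h or the first 96 h control library. The fourth call, *RPP25L* (-0.67), which is named after its values were seen, was lost in DESeq2 (adjusted p = 0.02402) and without the first 0 h library or either 96 h control library. The scaffold subunit *POP1* had a log2 fold change of -0.56 and *RPP38* one of -0.45. Between the arms, only *RPP40* was called, lower after CTCF depletion with 52 counts in each library against 81 and 97 (-0.74, adjusted p = 0.00234). That call was lost in DESeq2 (adjusted p = 0.05461) and without the second 96 h control library (-0.54) or either CTCF-depleted library.

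Of 13 RNA polymerase III subunits, 5 were called lower and 0 higher in the 96 h control than at 0 h (median -0.577), beside 22.9% and 25.4% of all tested genes. *POLR3G*, a subunit of 1 of the enzyme's alternative forms, had 261 and 366 counts at 0 h and 96 and 88 in the 96 h control (-1.71, adjusted p = 2.42e-17), and *POLR3K* had a log2 fold change of -0.96. After CTCF depletion *POLR3G* had 137 and 131 counts, a log2 fold change of 0.57 (adjusted p = 0.00175) against the 96 h control that was under the threshold. It was called higher in 9 of 14 refits, with values up to 0.64, and its adjusted p was 0.03052 in DESeq2. *POLR3B*, the second largest subunit, had 342 and 318 counts in the 96 h control and 192 and 185 after CTCF depletion, and was called lower (-0.78, adjusted p = 9.39e-09) under all 14 refits. Of 12 promoter factors and binding proteins, *SNAPC3*, part of the complex that recognises 7SK-type promoters, was called higher in the 96 h control than at 0 h (0.77) and *SSB*, the La protein that binds new polymerase III transcripts, lower (-0.77). Between the arms, 0 of these 12 were called in edgeR or DESeq2, and 5 had an unadjusted p below 0.05 in edgeR.

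**Figure D4:**
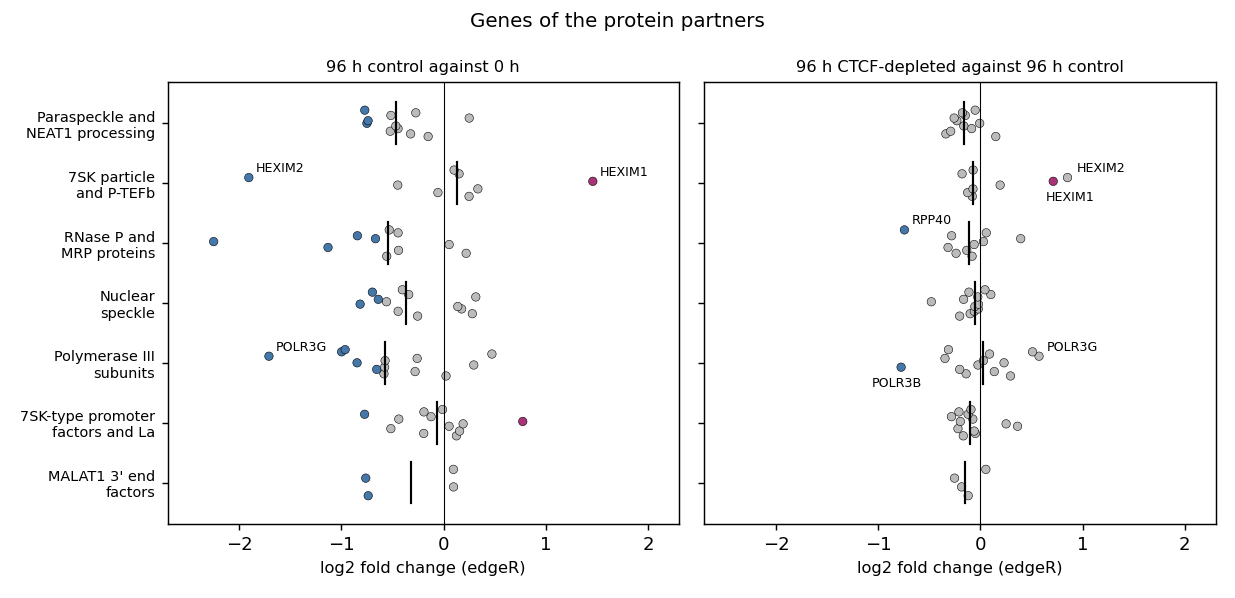
log2 fold change (horizontal axes, edgeR) of the tested genes of 7 lists of protein partners in the 96 h control against 0 h (left) and in CTCF-depleted against control iMacs (right). Each point is a gene (purple called higher, blue called lower, grey not called) and the black bar is the median of its list. *HEXIM1* is the gene called higher in both panels, at 1.46 and 0.71.

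The protein partner lists had 11, 8, 10, 12, 13, 12 and 4 tested genes. Between the arms they thus held 1 higher call, *HEXIM1*, to which most refits added *POLR3G*. The lower calls were 2, *RPP40* and *POLR3B*, beside 5.41% higher and 7.03% lower of all tested genes. Against 0 h, the CTCF-depleted libraries had 7 of 11 paraspeckle, 4 of 12 speckle and 5 of 10 RNase P and MRP genes called lower. So were 7 of 13 polymerase III and 2 of 12 promoter factor genes, and 2 of 4 in the list for the *MALAT1* 3′ end. None of these lists held a higher call, where 25.2% of all tested genes were called lower and 27.2% higher. Of the 7SK list, *HEXIM1* was called higher (2.17) and *HEXIM2* lower (-1.05, called in 5 of 13 refits). The largest falls were *POP7* (-1.45) and *POLR3B* (-1.35) among genes with over 100 counts in each library.

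Other structured RNAs were counted in the same way. Of 23 listed in the table, 16 were tested, with 3 called higher and 3 lower in the 96 h control than at 0 h (median 0.135), beside 25.4% and 22.9% of all tested genes. Between the arms, 0 were called in edgeR or DESeq2, and 4 had an unadjusted p below 0.05 in edgeR. *RN7SL1* and *RN7SL2*, the RNAs of the signal recognition particle and also products of polymerase III, together took 1.06% and 0.977% of counts at 0 h, 1.03% in each 96 h control library and 0.752% and 0.699% after CTCF depletion. The CTCF-depleted pair lay below the other 4 libraries. The log2 fold change between the arms was -0.56 for *RN7SL1* (95% confidence interval -0.67 to -0.45, adjusted p = 1.38e-12) and -0.46 for *RN7SL2* (adjusted p = 5.61e-10), both under the fold change threshold. These near-identical genes share reads, so how the counts divide between them is uncertain. The intervals of *RN7SL1* and *RN7SK* (0.02 to 0.27) do not overlap in this comparison, and the difference itself was not tested.

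Among the rest of this list, *TERC*, the telomerase RNA, was called lower in the 96 h control than at 0 h (-0.81). *BCYRN1* was called lower (-2.60) on 20 and 32 counts against 4 and 4, and *SNORD3A*, the U3 small nucleolar RNA, was called lower (-5.09) through 1 library, with 46 and 5134 counts at 0 h and 69 and 61 in the 96 h control. Without that library its log2 fold change was 0.27. *RNU1-1* (2.27, with 4 counts in each 0 h library), *RNU5A-1* (0.86) and *RNU5B-1* (0.69) were called higher. These 3 calls were lost without the second 0 h library, and those of both U5 genes also in DESeq2.

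The nearest tested genes were compared next between the arms. Of the 6 genes, *RN7SK*, *RMRP*, *RPPH1* and *TUG1* each start close to a gene that runs the other way. *GSTA4*, a glutathione transferase gene that starts 317 bases from the start of *RN7SK*, had 101 and 155 counts at 0 h, 26 and 39 in the 96 h control, and 94 and 81 after CTCF depletion. The CTCF-depleted libraries lay above both controls. It was called higher (log2 fold change 1.46, 2.74-fold, adjusted p = 4.509e-07) under all 14 refits, beside 0.14 for *RN7SK*. *PARP2*, a poly(ADP-ribose) polymerase gene that starts 208 bases from the start of *RPPH1*, had 261 and 262 counts in the 96 h control and 163 and 169 after CTCF depletion. It was called lower (-0.62, adjusted p = 2.211e-05), beside 0.08 for *RPPH1*, but 9 of 14 refits placed it under the fold change threshold (smallest size -0.56), among them those without either 0 h library, the second 96 h control or the first CTCF-depleted library.

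Among the 11 tested neighbours outside the 6 RNAs, *MIR612* included, only *GSTA4* and *PARP2* were called between the arms. Of all tested genes, 5.41% were called higher and 7.03% lower. The other neighbours named here were not called between the arms. *MORC2*, 471 bases from the start of *TUG1*, differed by 0.40 (adjusted p = 9.903e-06), *CCDC107*, 273 bases from the start of *RMRP*, by 0.16, *SIT1* by -0.44, *ICK* by -0.19, *CCNB1IP1* by 0.08 and *SMTN* by 0.24. On chromosome 11, *FRMD8*, 9.2 kb before *NEAT1*, differed by 0.17. *NEAT1* and *MALAT1* are each other's neighbours, with -0.18 and 0.31.

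The genes with the most similar profiles were sought among 9856 genes of a mean CPM of at least 10, by the distance between centred log2 levels over the 6 libraries. For *MALAT1* these were *NCOA3* (distance 0.0734) and *CD63* (0.103), and for *NEAT1* they were *ATP2B1* (0.0887) and *KIF13A* (0.108). *RN7SK* was closest to *BICD2* (0.0647) and *SMURF1* (0.0671), *RMRP* to *LGALS9* (0.0379) and *MTERFD2* (0.0728). *RPPH1* was closest to *SEPSECS* (0.0530) and *PACSIN2* (0.0583), and *TUG1* to *FAM73A* (0.0419) and *HMBOX1* (0.0421). With 6 libraries in 3 groups, such a profile is mostly the order and size of 3 group means.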

How the data were processed

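Total RNA was measured in 6 libraries of 3 groups. According to the labels and methods, the authors ligated stranded libraries from sheared, rRNA-depleted RNA, aligned reads to hg38 with STAR 2.6.1d and made raw counts per gene with featureCounts 2.0.6. The methods name protein-coding exons, yet the deposited counts list noncoding genes. The annotation, strand and overlap settings are not given in the sources used here.

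The counts as deposited were fitted in edgeR 4.0.16 (R 4.3.3; filterByExpr, TMM, quasi-likelihood test, all 6 libraries, condition only, Benjamini-Hochberg over 14758 genes), after the code was tested on simulated data. Calls needed an adjusted p below 0.01 and a log2 fold change beyond 0.6. Replicates differed beyond counting error (biological coefficient of variation 3.96%). Shares are of all counts, with Wilson intervals at the 95% level. CPM values use TMM-scaled totals, except marker sums. DESeq2 1.42.0, other scalings, filters, samples, a replicate block and leaving out each library were alternatives. The refits number 14.

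No pairing of the libraries by replicate number was seen, though counting error enters this check. Whether same-numbered libraries shared a batch was not tested. Deviations of same-numbered libraries from their group means correlated at -0.0194, 0.0109 and -0.0294 across genes.

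The 6 RNAs, the partner lists and the tests were chosen with earlier results of these data known. Named are the 6 RNAs, up to 3 genes called per list, direction and comparison, set core subunits, the nearest tested genes on each side and those overlapping, the 2 closest profiles and *CTCF*, apart from 2 genes not reported here. Gene positions were matched to GENCODE release 44 for 23707 of 30017 symbols.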

Additional observations from a re-analysis of the deposited data

How the results depend on the processing

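Of 252 refitted log2 fold changes of the 6 RNAs, 238 kept their direction and their side of the thresholds, 1 passed them (*RN7SK* in the 96 h control against 0 h without the first 96 h control library) and 13 changed sign. The sign changes were those of *RMRP* in the 96 h control against 0 h (-0.019 without the second 0 h library and 0.228 without the first) and of *TUG1* after CTCF depletion against the 96 h control (-0.01 as reported). The latter was 0.00097 with DESeq2, 0.0021 with DESeq2 size factors in edgeR, 0.025 with total counts, 0.020 with TMM factors made without structured RNAs, 0.020 with no filter, 0.026 with at least 10 counts in every library and 0.021 with the 4 compared libraries alone. Leaving out 1 library moved it between -0.0014 and 0.041 (0.023 and 0.020 without the first and second 0 h library, 0.041 without the second 96 h control, 0.039 and 0.0068 without the first and second CTCF-depleted library). With total counts the median of all tested genes in the 96 h control against 0 h was -0.104, in place of 0.015 with TMM, which moves every value of that comparison down: *RN7SK* was then 0.45 and *RMRP* 0.0059.

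Calls among the 6 RNAs depended on the threshold. At an adjusted p below 0.05 with no fold change threshold, all 6 were higher at 96 h than at 0 h in both arms. Between the arms, 1 was higher and 1 lower after CTCF depletion. The share of all tested genes at this looser threshold was not counted. At an adjusted p below 0.01 it was already 68.2% in the 96 h control against 0 h. For CTCF-depleted cells it was 71% against 0 h and 29.4% against the 96 h control. The partner lists name 95 genes, and held 11, 8, 10, 12, 13, 12, 4 and 16 tested genes. By the call thresholds, 25.4% of all tested genes were higher and 22.9% lower in the 96 h control than at 0 h. These shares were 27.2% and 25.2% for CTCF-depleted cells against 0 h, and 5.41% and 7.03% between the arms. Over the 8 partner lists, 5 genes were higher in the 96 h control than at 0 h, 3 with DESeq2, 3 to 8 with 1 library left out and 20 at the looser threshold, and 22 were lower, 45 at the looser threshold. In CTCF-depleted cells against 0 h, 4 were higher, 2 with DESeq2, 4 to 7 with 1 library left out and 18 at the looser threshold, and 31 were lower, 48 at the looser threshold. Between the arms 1 was higher, and 2 with total counts, with TMM factors made without structured RNAs, with no filter, with at least 10 counts in every library and with 4 libraries alone, 1 to 2 with 1 library left out and 9 at the looser threshold. There 2 were lower, 1 with DESeq2, 4 with no filter or with 4 libraries alone, 1 to 4 with 1 library left out and 21 at the looser threshold. Of the 11 tested neighbours outside the 6 RNAs, 1 was higher between the arms, and 4 at the looser threshold. The number lower was 1. It was 0 with total counts, TMM factors made without structured RNAs, no filter, at least 10 counts in every library or 4 libraries alone.

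The share of the 6 RNAs was 3.99% at 0 h and 6.96% after CTCF depletion with TMM-scaled totals, and 4.37%, 6.28% and 7.40% in the 3 groups with totals that leave out the 6 RNAs. With the replicate number as a block, 2, 0 and 3 RNAs were called higher and 0 lower in the 3 comparisons, as without it, and the values between the arms were 0.31 for *MALAT1*, -0.18 for *NEAT1* and 0.14 for *RN7SK*. With 2 libraries a group, the depth limits low genes such as *HEXIM2*, *RPP21* and *RNU1-1* most.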
